A study of Mus musculus and Homo sapiens with 43 samples.

Results

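The aminoacyl-tRNA synthetase genes other than those for leucine, isoleucine and valine were followed through 3 comparisons of a study. With them were followed the scaffold genes that hold several of these enzymes in one complex. The study knocked down leucyl-tRNA synthetase (Lars) in mouse mammary tumor cells and compared tumors of Lars fl/wt and Lars wt genotype. The 34 genes were taken by symbol: 18 cytosolic synthetase genes, 3 scaffold genes and 13 mitochondrial synthetase genes. All 34 were found among the 24421 genes of the polysome table, the 9833 genes of the translational efficiency table and the 23487 genes of the RiboTag table. The cell experiments used 4T07, a mouse mammary carcinoma line that carried either a control hairpin (shCtrl) or either of 2 hairpins against Lars (shLars3 and shLars4). For each of these lines the labels list 3 libraries of mRNA on 1 to 2 polysomes, 3 libraries of mRNA on 3 or more polysomes and 2 libraries of total RNA, plus 1 pooled footprint library without a group. The tumor experiment compared 3 tumors of genotype Lars fl/wt with 3 tumors that were Lars wt. All 6 also carried rpl22HA fl/wt, MMTV-Cre and MMTV-PyMT on the C57BL/6J strain, and their ages are not given in the sources used here. In these mice the MMTV promoter drives both the oncogene and the Cre that tags ribosomes, so the tag is meant to mark the ribosomes of cells in which Cre was active.

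An aminoacyl-tRNA synthetase joins an amino acid to the tRNAs that read its codons, which makes the substrate that elongation factor 1A brings to the ribosome. Cytosol and mitochondria mostly use separate enzymes, both encoded in the nucleus. The mitochondrial ones serve the translation of the respiratory chain subunits encoded in mitochondrial DNA, while the lysine and glycine genes Kars and Gars each give rise to an enzyme for both compartments. In animal cells the enzymes for aspartate, glutamate and proline (one fused protein, Eprs), lysine, methionine, glutamine and arginine bind, with those for leucine and isoleucine, to the scaffold proteins Aimp1, Aimp2 and Eef1e1 in the multi-synthetase complex. Many cytosolic synthetase genes are known targets of Atf4, the transcription factor that is induced when uncharged tRNA accumulates.

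The deposited tables hold no value per library, so counts per library and the spread between replicates are unknown. Error is given as the authors' standard error (SE) or as the 95% interval made from it where a table has one. Nothing in the labels says that replicates were separate cultures, so p-values may measure technical spread only. The members were well covered, with mean normalized counts of 203 to 7124 in the polysome table and 129 to 7826 in the RiboTag table. Those means depend on transcript length, so they are used as a measure of read depth and not to rank genes by expression. The luminal keratin genes Krt8 and Krt18 had mean normalized counts of 8383 and 4113 in the authors' deposited polysome table, and the epithelial marker Epcam and the luminal factor Elf5 ones of 16.4 and 0.0711. In the authors' deposited RiboTag table all 12 luminal markers were present, Epcam at 37552 and Elf5 at 15336. Macrophage markers were present there too, with mean normalized counts of 4513 for Lyz2 and 3391 for C1qa in the authors' deposited table, so mRNA from outside the epithelium may be included. The lowest measured macrophage marker was Mrc1, at 157, and Adgre1 had no value. Fibroblast markers had mean counts of 27.9 to 960 there, T and B cell markers 2.79 to 28.9 and endothelial markers 3.21 to 51.4.

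Total mRNA was compared first, as it carries the check on the knockdown and states its direction, knockdown over control. Lars mRNA stood at a log2 change of -1.46 and Lars footprints at -1.23 in the authors' deposited efficiency table, or 36.2% and 42.6% of control. No other synthetase or scaffold gene of the set came near this change. The 34 log2 changes in mRNA lay between -0.27 (Tars2) and 0.27 (Mars2) in the authors' deposited table, with 22 above 0 and 12 below, and 23 of them were within 0.2 of 0. Over all 9833 genes, 4903 lay above 0, 75.9% lay in the same span and 1.43% reached a 2-fold change, which no member did. The table gives no test and no SE for mRNA or footprints, so these values are descriptions. The median was 0.05 for the cytosolic synthetases, 0.06 for the scaffolds and 0.01 for the mitochondrial synthetases, against -0.00055 for all genes.

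Among the cytosolic enzymes, the highest mRNA change belonged to Farsa, the catalytic subunit of phenylalanyl-tRNA synthetase, at 0.24 in the authors' deposited table. Its partner subunit Farsb was the lowest, at -0.23 in the authors' deposited table, so the 2 subunits of one enzyme lay at the opposite ends of the cytosolic group. The tyrosine enzyme gene Yars stood at 0.22, the serine gene Sars at 0.17 and Kars at 0.15 in the authors' deposited table. The tryptophan gene Wars, known to be induced by interferon, stood at -0.21 and the aspartate gene Dars at -0.18 in the same deposited table of the authors. The other 11 cytosolic genes, with Eprs highest and the glutamine gene Qars lowest, lay between -0.11 and 0.11. Of the scaffolds, Aimp2 stood at 0.15, Aimp1 at 0.06 and Eef1e1 at -0.21 in the authors' deposited table. The mitochondrial genes spread to both ends: the methionine gene Mars2 at 0.27 and the tryptophan gene Wars2 at 0.21 were highest, and the threonine gene Tars2 (-0.27), the serine gene Sars2 (-0.26), the asparagine gene Nars2 (-0.25) and the alanine gene Aars2 (-0.24) were lowest in the authors' deposited table.

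The response element for Atf4 and its C/EBP partners was looked for in the promoters, since it links synthetase genes to amino acid supply. RefSeq promoter windows of GRCm38.p6, from 250 bases before to 50 after an annotated start, were at hand for 27 of the 34 genes. The motif TTGCATCA, searched on both strands (its reverse complement is TGATGCAA), was found in 3 members, all cytosolic: Aars for alanine, Tars for threonine and Yars for tyrosine. Of 27025 genes with a window, 1.03% held it, as did 6 of 24 listed Atf4 target genes with a window. The looser motif TGATGNAA, which contains the first and was added after the data were seen, was in 4 members, the further one being the glycine gene Gars, and in 4.51% of all genes. In Aars the match began 112 bases before an annotated start. That start and the one used for Yars lie inside the annotated span of the gene, whereas the start used for Tars is the first base of its span. The windows of Tars and Yars are shown because they place these letters within 15 bases of such an annotated start. They are written in the direction of transcription with the match in capitals. They lie at chr15:11399609-11399908 on the minus strand (Tars, match beginning 15 bases before the start) and chr4:129189653-129189952 on the plus strand (Yars, 3 bases after, read on the reverse strand).
Tars: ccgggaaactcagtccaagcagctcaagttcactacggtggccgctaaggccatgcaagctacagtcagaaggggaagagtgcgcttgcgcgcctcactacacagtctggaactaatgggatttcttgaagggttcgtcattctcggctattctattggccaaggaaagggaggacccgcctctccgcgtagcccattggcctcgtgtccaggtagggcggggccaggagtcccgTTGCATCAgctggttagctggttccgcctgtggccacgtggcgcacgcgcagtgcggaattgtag
Yars: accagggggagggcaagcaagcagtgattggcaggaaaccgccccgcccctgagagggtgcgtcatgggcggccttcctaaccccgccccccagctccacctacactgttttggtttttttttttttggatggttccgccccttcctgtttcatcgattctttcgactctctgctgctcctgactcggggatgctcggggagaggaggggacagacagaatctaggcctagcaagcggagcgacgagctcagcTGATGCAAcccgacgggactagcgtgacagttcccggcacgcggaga

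The 3 genes with these letters had mRNA changes of 0.0045 (Aars), 0.07 (Tars) and 0.22 (Yars) in the authors' deposited efficiency table, all above 0 and inside the span of the other members. A match is a description of the sequence, and whether Atf4 binds there was not measured. The listed Atf4 targets themselves were divided: of 27 measured, 5 had an mRNA change above the highest member and 4 one below the lowest, with a median of 0.07. In the authors' deposited table the stanniocalcin gene Stc2 stood at 1.04, the translation repressor gene Eif4ebp1 at 0.81, the asparagine synthetase gene Asns at 0.15, Atf4 itself at -0.03 and the cystine transporter gene Slc7a11 at -0.63.

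Footprints, the mRNA pieces covered by ribosomes, spread wider than mRNA, from -0.57 for the mitochondrial phenylalanine gene Fars2 to 0.62 for Mars2 in the authors' deposited table. Over all genes, 92.1% lay within 0.62 of 0. Of the 34 members, 14 had a footprint change above 0, as did 4740 of all 9833 genes. In 18 members the footprint and mRNA changes had opposite signs, a share that was not computed for all genes. In the authors' deposited table the scaffold gene Eef1e1 combined an mRNA change of -0.21 with a footprint change of 0.47. Dars did likewise, at -0.18 for mRNA against 0.39 for footprints, and so did Nars2, at -0.25 against 0.26, both from the authors' deposited table. The opposite combination was seen for Fars2, with 0.08 in mRNA and -0.57 in footprints, and for the proline gene Pars2, with 0.06 and -0.42 in the authors' deposited table. Mars2 was the member in which both were high. Fars2, Mars2 and Pars2 had the lowest mean counts of the set in the authors' polysome comparison, at 242, 270 and 203. Eef1e1 and Dars had 2003 and 2230 there. The part of read depth in the spread of footprint changes was not tested. The median footprint change was -0.02 for cytosolic synthetases, 0.11 for scaffolds and -0.16 for mitochondrial synthetases, against -0.01 for all genes.

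**Figure D1:**
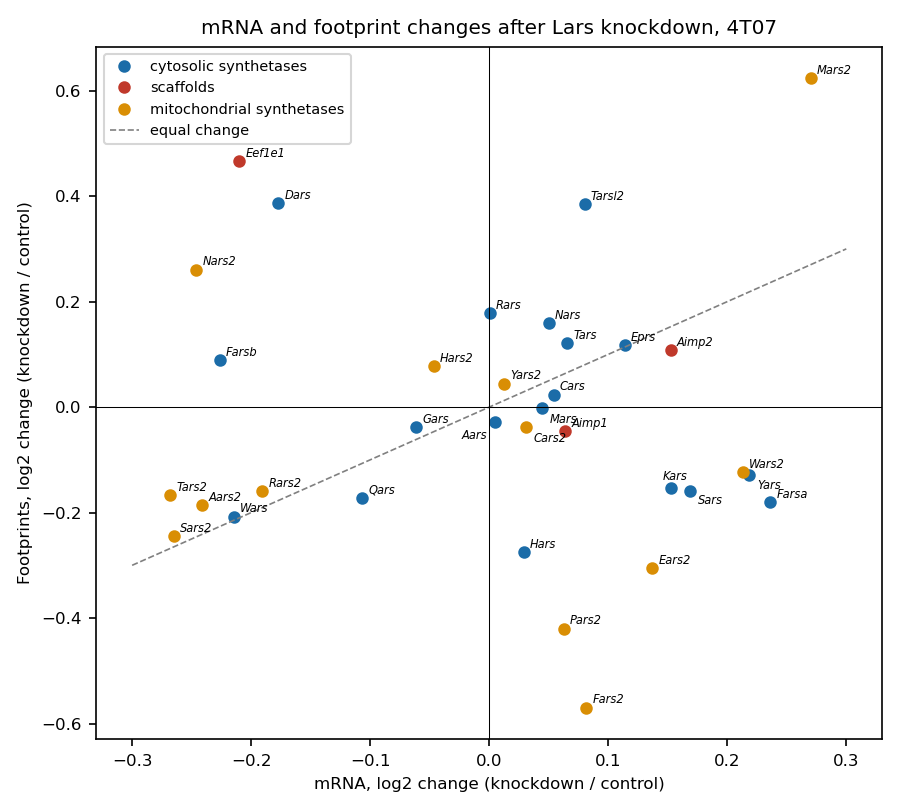
Log2 change of footprints (vertical axis) against log2 change of total mRNA (horizontal axis), knockdown over control, for the 34 genes, coloured by group, with the dashed line marking equal change. The mRNA changes of the genes run from -0.27 to 0.27. Eef1e1, Dars and Nars2 sit at the upper left and Fars2 and Pars2 at the bottom.

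Translational efficiency, the ratio of footprints to mRNA, passed the test in 0 of the 34 genes (xtail adjusted p under 0.05), where 0.0508% of the 9833 genes passed. Before adjustment, 3 members had a final xtail p under 0.05, as did 6.35% of all genes. The highest change was that of Eef1e1, at 0.66 in the authors' deposited table, a 1.58-fold higher ratio (xtail unadjusted p = 0.0132, adjusted p = 0.757). Dars stood at 0.56 in the authors' deposited table, a 1.48-fold higher ratio (xtail unadjusted p = 0.00175, adjusted p = 0.616). Farsa stood at -0.40 in the authors' deposited table (xtail unadjusted p = 0.0417, adjusted p = 0.775). Both of these genes with a positive value encode partners in the multi-synthetase complex. The complex as a whole was divided: of its 9 listed genes, 4 had a positive efficiency change and 5 a negative one, with a median of -0.04. xtail makes one estimate from the fold changes of both layers and another from the ratios in each condition, and the final p is the more cautious of them. The first estimate alone called Dars (Benjamini-Hochberg adjusted p = 0.000658) and Eef1e1 (adjusted p = 0.0125), 2 of 34 members on the positive side against 2.73% of all genes. The second estimate called neither (adjusted p = 0.492 and 0.734). The libraries behind these p-values are not stated, and the labels list a single pooled footprint library.

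From the 25th to the 75th percentile, efficiency changes ran from -0.24 to 0.11 in the 34 members and from -0.24 to 0.21 in all genes. An efficiency change of at least 0.4 in either direction was seen in 7 members and one of under 0.1 in 15. The shares of all genes at these 2 sizes were not computed. The 7 were Eef1e1, Dars and Farsa, and, with adjusted p-values of 0.805 to 0.904, the mitochondrial genes Nars2 (0.49), Ears2 for glutamate (-0.44), Pars2 (-0.48) and Fars2 (-0.64) in the authors' deposited table. These mitochondrial genes had mean counts of 203 (Pars2) to 567 (Nars2) in the authors' polysome comparison, and Farsa one of 2936. The part of read depth in these changes was not tested. The phenylalanine subunits again stood on opposite sides, Farsb at 0.31 and Farsa at -0.40 in the authors' deposited table. Kars (-0.31), Sars (-0.32), Yars (-0.33) and the histidine gene Hars (-0.29) shared the pattern of Farsa, with mRNA slightly above 0 and footprints below 0, and none of them passed. The cytosolic genes for alanine, cysteine, methionine, glycine and tryptophan and the fused Eprs were all within 0.05 of 0. Group medians were -0.01 (cytosolic), -0.04 (scaffolds) and 0.03 (mitochondrial), against -0.01 for all genes.

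The ratio in control cells sets footprints against mRNA without the knockdown. Whether it measures how heavily an mRNA was occupied by ribosomes was not tested. As a ratio within a gene it is not set by transcript length, apart from differences in the part of the mRNA counted in each layer. The 34 genes leaned high: 29 lay above the median of all genes, a log2 ratio of 0.04. The mitochondrial synthetases had the highest median, 1.05, against 0.56 for the cytosolic synthetases and 0.54 for the scaffolds. Of the 13 mitochondrial genes, 9 lay above the 75th percentile of all genes, compared with 3 of the 18 cytosolic genes and 1 of the 3 scaffolds. These shares are descriptions of 1 control value per gene with no error attached. Across the 34 genes the control ratio had a Spearman rho of -0.39 with the mean count in the polysome comparison. That count was 203 to 1395 for the mitochondrial genes and at least 2019 for the cytosolic genes other than Tarsl2. The part of read depth in the group difference was not tested. In the authors' deposited table the tyrosine gene Yars2 stood at 2.24, above 97.4% of genes, and Mars2 at 2.02, above 96.1%. The genes Ears2 (1.86), Aars2 (1.81) and Fars2 (1.67) followed in the authors' deposited table. At the other end of the group, Hars2 at -0.34 was the lowest of all 34, next to Wars2 at 0.03 in the authors' deposited table.

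Among the cytosolic enzymes the same ratio was highest for Farsa (1.51), Mars (1.47) and Qars (1.37) in the authors' deposited table, and these were the 3 above the 75th percentile. It was lowest for Dars (-0.15), the asparagine gene Nars (-0.13) and Gars (-0.04), which lay just under the median of all genes. Among the scaffolds, Aimp2 at 1.47 lay above 89.8% of genes, Aimp1 at 0.54 above 67.0% and Eef1e1 at 0.05 above 50.3% in the authors' deposited table. In the knockdown Eef1e1 stood at 0.73 and Dars at 0.41 in the authors' deposited table. The efficiency change contains the control ratio, so change and control ratio are not independent values. The order of the 34 genes was otherwise much alike in both conditions, with a Spearman rho of 0.86 across these 34 genes and 0.94 across all 9833, given as a description. Within one amino acid, the mitochondrial gene had the higher control ratio in 9 of 12 pairings, counting Fars2 against both Farsa and Farsb, with a median difference of 0.48. The difference was greatest for tyrosine (1.55) and alanine (1.28) and ran the other way for histidine (-1.07), tryptophan (-0.76) and threonine (-0.08).

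**Figure D2:**
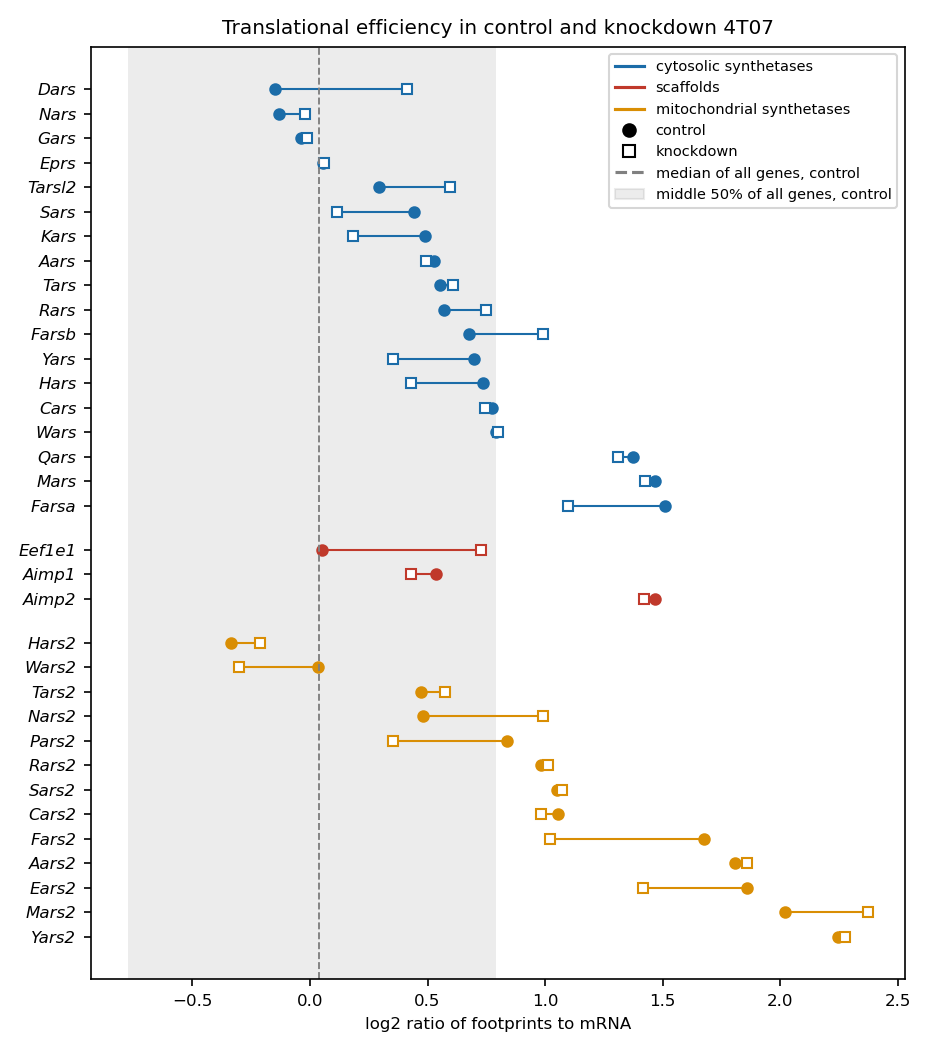
Log2 ratio of footprints to mRNA for each gene in control cells (filled circles) and knockdown cells (open squares), grouped and ordered by the control value; the dashed line is the control median of all genes (0.04) and the grey band the range from the 25th to the 75th percentile of all genes, 1 value per gene and condition. Most mitochondrial genes lie to the right of the band, and the longest shifts to the right are those of Eef1e1 and Dars.

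The polysome comparison gave calls on one side. Of the 34 genes, 6 passed on the negative side (DESeq2 adjusted p under 0.05) and 0 on the positive side, where 17.5% and 10.4% of the 13485 tested genes passed. The share of members called on the negative side, 17.6%, is thus near that of all genes. Among genes with a mean count of at least 50, as all members had, 21.2% passed on the negative and 11.6% on the positive side. Regardless of the test, 27 members had a negative value and 7 a positive one, and 57.2% of all tested genes were negative. Neither labels nor headers say which groups form this contrast and in which order, so genes are given by side. Its mean counts show single-read levels of 27 libraries where 18 are labelled, so libraries not described here may contribute. The enzyme genes and the scaffold genes differed in how many passed: all 3 scaffold genes did, and 3 of the 31 synthetase genes. No test sets those counts against each other. When values were centred on the median of all tested genes, Aimp1, Aimp2 and Cars2 still passed, whereas Farsb, Kars and Eef1e1 did not.

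The scaffolds held the 3 lowest values of the set. Aimp1 (chromosome 3, 132660498 to 132684390, GRCm38.p6), whose protein also has a secreted cytokine form, stood at -0.81 in the authors' deposited table (SE 0.27, 95% interval -1.33 to -0.29, DESeq2 adjusted p = 0.0121), a 1.75-fold difference. Aimp2 (chromosome 5, 143902704 to 143909839), the core scaffold that binds Kars, stood at -0.77 in the authors' deposited table (SE 0.19, interval -1.15 to -0.38, DESeq2 adjusted p = 0.000846), a 1.70-fold difference. Eef1e1 (chromosome 13, 38645691 to 38659028), which resembles an elongation factor subunit and binds Mars, stood at -0.68 in the authors' deposited table (SE 0.25, interval -1.16 to -0.19, DESeq2 adjusted p = 0.0262). These are moderate values among all genes, of which 17.5% lay below Aimp1. Aimp1 overlaps Tbck and Aimp2 overlaps Eif2ak1, and the kit marks no strand, so reads may be shared; the partners stood at -0.10 and -0.06 in the authors' deposited table and did not pass.

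Of the 18 cytosolic synthetase genes, 2 passed. Farsb (chromosome 1, 78417958 to 78488897) stood at -0.60 in the authors' deposited table (SE 0.23, interval -1.04 to -0.15, DESeq2 adjusted p = 0.0344), and it overlaps Sgpp2, whose reads were few (mean count 16.9, with 2019 for Farsb). Kars (chromosome 8, 111993439 to 112011354) stood at -0.43 in the authors' deposited table (SE 0.15, interval -0.71 to -0.14, DESeq2 adjusted p = 0.0165). A further 4 cytosolic genes reached an unadjusted p under 0.05 without passing: the arginine gene Rars (-0.59), Mars (-0.56), Gars (-0.54) and Sars (-0.43) in the authors' deposited table, with adjusted p-values of 0.0571 to 0.0811. Mars overlaps the Atf4 target gene Ddit3, which stood at -1.16 in the authors' deposited table and passed (DESeq2 adjusted p = 0.0217). The cysteine gene Cars stood at -0.50 and Tars at -0.45 with wider intervals, and Farsa, Qars, Hars, Eprs, Aars, Yars and the second threonine gene Tarsl2 lay between -0.28 and -0.18 in the authors' deposited table. Wars at -0.06, Nars at 0.0015 and Dars at 0.15 closed the range of the cytosolic group, whose median was -0.27 against -0.12 for all tested genes. Within this group, the median over the 6 synthetases of the complex was -0.35, against -0.27 over the 12 outside, a description without a test.

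Of the 13 mitochondrial synthetase genes, 1 passed. The cysteine gene Cars2 (chromosome 8, 11514017 to 11550781) stood at -0.42 in the authors' deposited table (SE 0.11, interval -0.64 to -0.20, DESeq2 adjusted p = 0.00137), with the smallest SE of all 34 genes. Yars2 (-0.49), the arginine gene Rars2 (-0.46), Fars2 (-0.42) and Ears2 (-0.41) had similar values with larger errors and did not pass in the authors' deposited table (adjusted p of 0.0723 to 0.163). Tars2, Hars2 and Sars2 lay between -0.24 and -0.17. The remaining 5 were above 0 without passing: Mars2 at 0.34, Aars2 at 0.31, Nars2 at 0.23, Wars2 at 0.12 and Pars2 at 0.04 in the authors' deposited table. These include 5 of the 7 positive values in the set. The group median was -0.20, and in 10 of 12 pairings the mitochondrial gene lay above its cytosolic counterpart, most for methionine (0.89) and alanine (0.55). The difference was least for histidine (0.07) and cysteine (0.08), where the SE of single genes in the set was 0.11 to 0.28. Fars2 was counted against both Farsa (-0.14) and Farsb (0.18), and tyrosine also ran the other way (-0.27). The pairings were not tested. The interval bounds the size of what could be missed: for 25 of the 34 genes it lay within a 2-fold difference in either direction, as it did for 55.4% of genes with a mean count of at least 50.

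**Figure D3:**
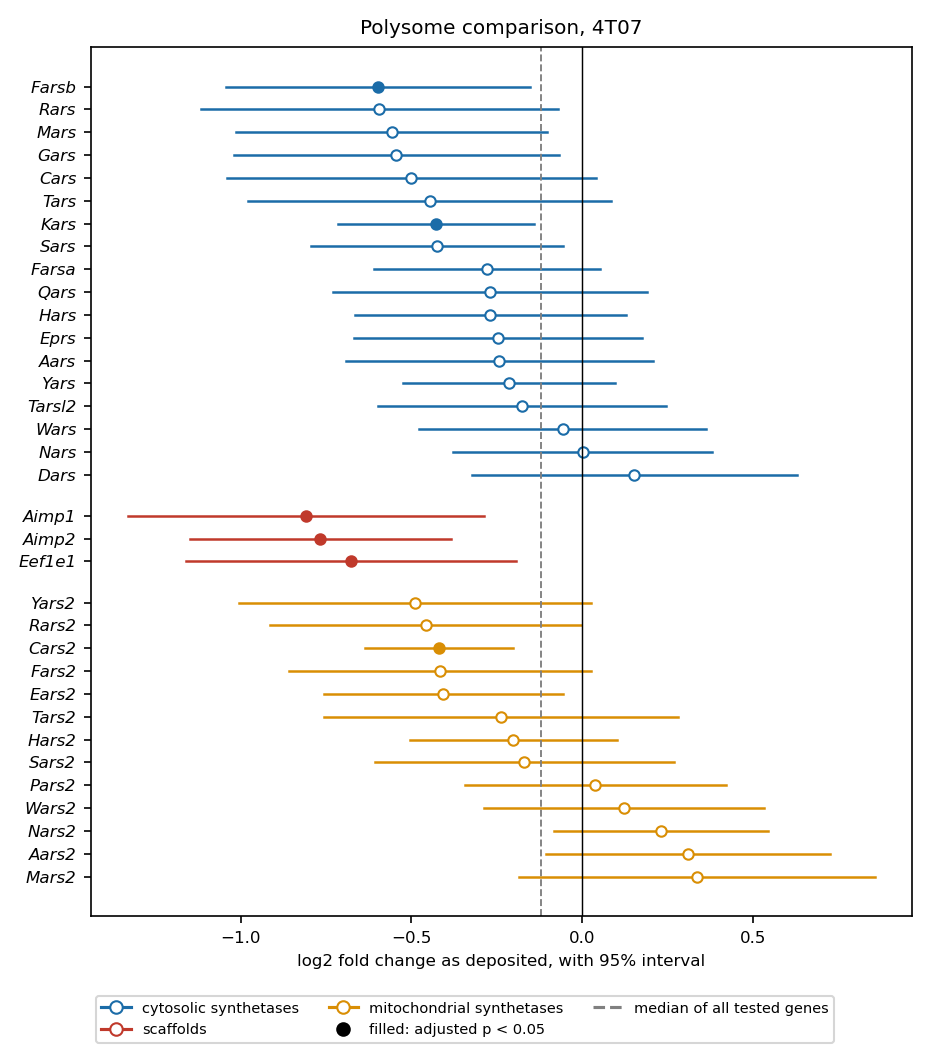
Log2 fold change of each gene in the authors' polysome table with its 95% interval, by group and ordered by value; filled points passed at an adjusted p under 0.05 and the dashed line is the median of all tested genes (-0.12). The 3 scaffold genes lie lowest, at -0.81 to -0.68, and all 6 filled points are on the negative side.

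The neighbours of these genes in tRNA charging, a list of 25 further genes, were set beside them. The share of all tested genes that passed on the negative side, 17.5%, or 21.2% at a mean count of at least 50, is the background for the counts of these small groups. Of the elongation factor 1 subunits, 3 of 4 tested passed with a negative polysome value, Eef1b2 at -0.97, Eef1g at -0.86 and Eef1d at -0.80 in the authors' deposited table, while Eef1a1, the factor that carries charged tRNA, stood at -0.21. Proofreading genes did so in 3 of 4, with the prolyl-tRNA editing gene Prorsd1 at -1.18 and the D-aminoacyl-tRNA deacylase gene Dtd2 at -1.17 in the authors' deposited table. Of the 4 genes for the mitochondrial amidotransferase and the formylation of methionyl-tRNA, the formyltransferase gene Mtfmt passed, at -0.54 in the authors' deposited table. In the making and use of selenocysteine, Pstk at -1.01 and Sepsecs at 1.26, which act one after the other on the same tRNA, passed on opposite sides in the authors' deposited table. The genes for CCA addition and tRNA export, Trnt1 and Xpot, did not pass. Of the 6 branched-chain synthetase genes 5 were tested, and Lars alone passed, at -0.82 (SE 0.30, DESeq2 adjusted p = 0.0285) in the authors' deposited table. The isoleucine and valine genes Iars (0.23) and Vars (0.07) did not pass in the authors' deposited table. None of these genes passed in efficiency.

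In the PyMT tumors, 0 of the 34 genes differed between Lars fl/wt and Lars wt (DESeq2 adjusted p = 1.00 for each member in the authors' deposited table). The background was also empty: 0% of 23487 genes passed, and 1.19% had an unadjusted p under 0.05, against 0 of the 34 members, whose smallest unadjusted p was 0.226. Lars itself stood at -0.75 (SE 0.43, unadjusted DESeq2 p = 0.0807) in the authors' deposited table, and the direction of the contrast is not stated. In bulk ribosome-bound mRNA, fewer cells of a type and less RNA per cell cannot be told apart. The members' values ran from -0.54 for Aimp2 (SE 0.55) to 0.52 for Eprs (SE 0.43) in the authors' deposited table. Precision was lower than in the polysome table, with SE of 0.42 to 0.55 against 0.11 to 0.28. The 95% interval lay within a 2-fold difference for 8 of the 34 genes, among 19.2% of genes with a mean count of at least 50, and for the other 26 members it reached beyond that size.

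Of the 34 values, 19 were positive, among 48.5% of genes with a mean count of at least 50. By role, 13 of the 18 cytosolic genes lay above 0 and 5 below, with a median of 0.09, against -0.01 for all genes. Above Tars at 0.33, the highest were Eprs, Aars at 0.42, Mars at 0.41 and Rars at 0.39, and the lowest were Dars at -0.48 and Kars at -0.41 in the authors' deposited table. Of these, Eprs, Mars and Rars at the upper end and Dars and Kars at the lower end encode enzymes of the complex. The scaffolds were divided too, with Aimp1 at 0.24 and Eef1e1 at -0.14 beside the low Aimp2 in the authors' deposited table. The mitochondrial genes kept a narrower span, from -0.18 for Cars2 to 0.31 for Tars2, and 8 of 13 lay below 0. In 9 of 12 pairings the mitochondrial gene was lower than its cytosolic counterpart, with differences of -0.48 to -0.02 on the log2 scale, where the SE of single genes was 0.42 to 0.55. All 8 basal epithelial markers lay on the positive side of this comparison, at 0.49 to 1.74, as did all 5 neutrophil markers, at 0.88 to 3.25, and all 7 macrophage markers measured, at 0.32 to 1.45. Of the luminal markers 10 of 12 were positive (median 0.29), as were 5 of 8 fibroblast, 4 of 7 T and B cell and 3 of 5 adipocyte markers, while 4 of 6 endothelial markers were negative. None of these markers passed, and their part in the members' values was not tested.

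**Figure D4:**
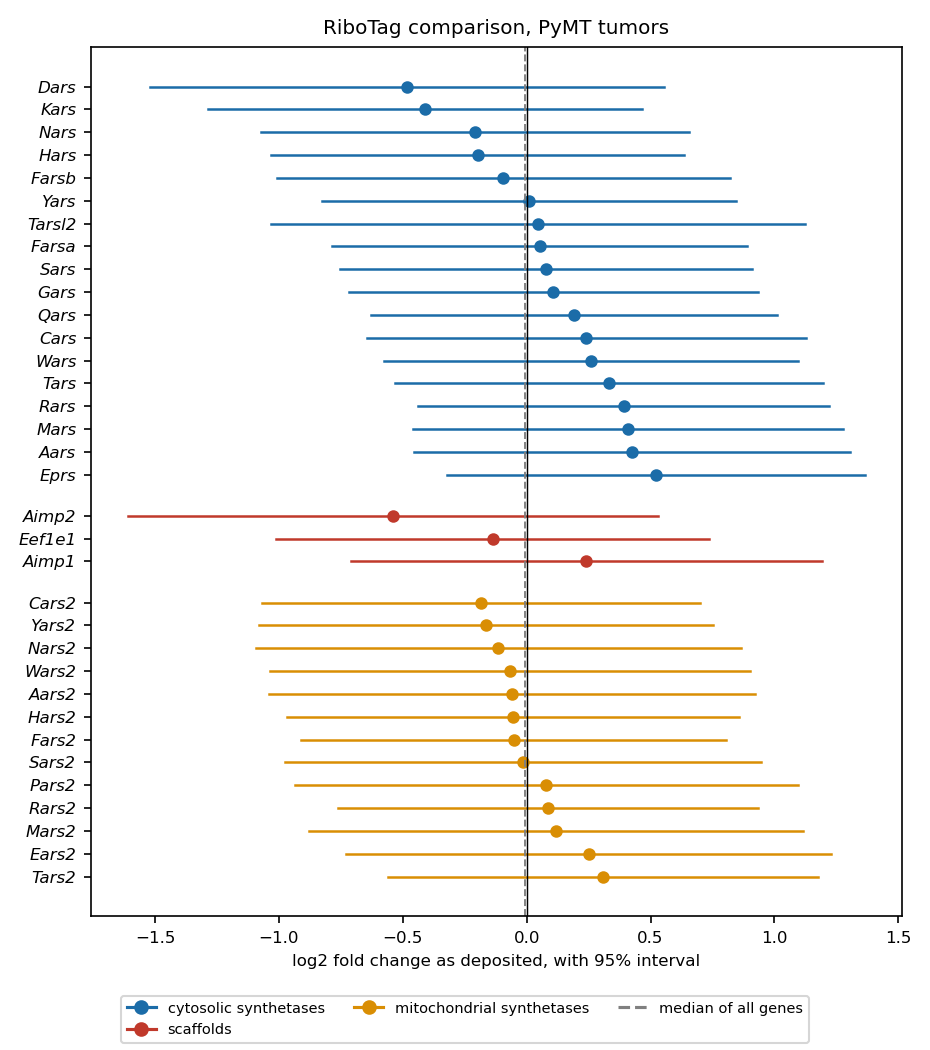
Log2 fold change of each gene in the authors' RiboTag table with its 95% interval, by group and ordered by value; the dashed line is the median of all genes (-0.01). Every interval includes 0, and the values run from -0.54 (Aimp2) to 0.52 (Eprs).

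For the 6 genes that passed in the polysome comparison, the values of the other comparisons are given side by side, and none of these passed. Their efficiency changes were 0.66 for Eef1e1, 0.31 for Farsb, -0.04 for Aimp2, -0.07 for Cars2, -0.10 for Aimp1 and -0.31 for Kars in the authors' deposited table. Their RiboTag values were -0.54 for Aimp2, -0.41 for Kars, -0.18 for Cars2, -0.14 for Eef1e1, -0.10 for Farsb and 0.24 for Aimp1 in the authors' deposited table. Across the 34 genes the polysome value had a Spearman rho of 0.11 with the efficiency change, -0.10 with the control ratio and -0.11 with the RiboTag value. It had a rho of 0.03 with the genomic span of the gene and of -0.41 with the mean count as a measure of depth, which was 203 to 1395 for the mitochondrial genes and at least 2019 for the cytosolic genes other than Tarsl2. These correlations are across genes that share libraries and are given without a test.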

How the data were processed

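Tables of 3 comparisons that the authors deposited were used. Per the file headers, the polysome and RiboTag tables are DESeq2 results: a mean normalized count (a signal, counts divided by size factors by the authors), a deposited log2 fold change with its SE, a Wald score and deposited p-values. Per the file headers, the efficiency table is an xtail result, with deposited log2 changes and ratios and p-values but no SE. TruSeq v2 libraries do not mark strand, per the labels' protocols. Tools listed without a role in the submitters' processing notes are STAR 2.5.2a, HTSeq, featureCounts, Bowtie2 2.4.1, DESeq2 and SAMtools, and the build is mm10. No table has a column per library, so no refit or depth per library was possible.

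Dropped from efficiency were 18 rows with symbols turned into dates. From RiboTag 7 rows with a repeated symbol and 1 without a symbol were dropped. A gene passed at a deposited adjusted p under 0.05. Intervals are the log2 change plus or minus the normal 95% quantile times the SE. Single-read levels are mean counts shared by at least 10 genes that are not sums of 2 or 3 lower ones. Genes in full are those that passed, the highest and lowest of each group, and those with an unadjusted p under 0.05 in efficiency or RiboTag. Of neighbouring genes, Lars and up to 2 per direction were to be named; the third elongation factor subunit and the others named beyond that were chosen after their values were seen. Alternatives covered the adjustment, a mean count minimum of 50, centring, thresholds of 0.01 and 0.1 and both xtail estimates. Adjustment and Wald p were tested on simulated data. Protein sequences were not used here. Members and lists were chosen with earlier results of these data known. Computations used scipy 1.17.1, pandas 2.3.3 and numpy 2.4.6 under Python 3.11.15, with plots by matplotlib 3.10.9.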

Additional observations from a re-analysis of the deposited data

How the results depend on the processing

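The 6 polysome calls on the negative side became 3 (Aimp1, Aimp2 and Cars2) when values were centred on the median of all tested genes (-0.12), with DESeq2 SE and Benjamini-Hochberg adjusted p of 0.105 for Farsb, 0.105 for Kars and 0.0776 for Eef1e1. They became 2 (Aimp2 and Cars2) at a threshold of 0.01 and 11 at 0.1. With centring, called genes over the whole table went from 2365 negative and 1396 positive to 1761 and 1955. Wars turned from -0.06 to 0.065 with centring, without passing. Adjustment over all rows with a p-value kept all 6, and adjustment over genes with a mean count of at least 50 added Mars (adjusted p = 0.0486). The count on the positive side was 0 under each of these alternatives. The first xtail estimate called 2 members in efficiency (Dars and Eef1e1), and the second estimate and both other alternatives 0. The RiboTag count was 0 under all 5 alternatives. Centring turned the sign of the cytosolic efficiency median, from -0.01 to 0.0019. Leaving out replicates could not be run, as the tables have no column per library. No paired analysis was possible because the columns carry no replicate numbers. Depth per library is unknown, so what it limits is seen only through the SE.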
